A study of Homo sapiens with 21 samples.

Results

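The 10 genes of the cytosolic heat shock response studied here were followed through 21 RNA-seq libraries of human cells under stress of the endoplasmic reticulum (ER). They were HSPA1A, HSPA1B, HSPA8, HSP90AA1, HSP90AB1, DNAJB1, HSPH1, HSPB1, BAG3 and HSF1, chosen by symbol with earlier results of these data known. All 10 of them were among the 60671 genes of the count table. Each of the 10 also passed the filter on low counts that left 14012 genes for testing. OCI-AML3, a line from acute myeloid leukaemia, was sampled untreated at 0 h, after the solvent DMSO for 4 h or 24 h, and after tunicamycin at 1 μg/mL for 4 h or 24 h. HEK293T, a line from embryonic kidney, was sampled after DMSO or the same dose of tunicamycin for 24 h. Tunicamycin blocks N-linked glycosylation, so that glycoproteins fail to fold in the ER lumen. Each of the 7 groups had 3 replicates, and OCI-AML3 was grown in RPMI medium while HEK293T was grown in DMEM. The labels give no separate origin for the replicates, so that the p-values measure only the spread between these samples, which may be technical.

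Library totals ran from 13838466 to 19961798 expected counts, with a median of 16657737, and a floor of 3 counts in a library corresponded to 0.137 to 0.231 CPM, the count divided by the scaled library size. The labelled cell lines were compared with marker genes. The leukocyte genes PTPRC, SPI1 and CD33 were at mean levels of 71.8 to 298 CPM in OCI-AML3 cells given DMSO for 24 h, and at 0.129 CPM or less in HEK293T cells given DMSO. MPO, the myeloperoxidase of granulocyte precursors, reached only 1.27 CPM in those OCI-AML3 cells and was at 0 in HEK293T cells. KRT18, which encodes an epithelial keratin, and CDH2, which encodes N-cadherin, were at 45.1 and 69.0 CPM in DMSO-treated HEK293T cells, against 0.925 and 2.29 CPM in OCI-AML3 cells, and KRT8 was at 6.33 against 0.245 CPM.

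In the cytosol, Hsp70 and Hsp90 chaperones bind unfolded or immature proteins and are helped by J-domain proteins, nucleotide exchange factors and small heat shock proteins. Heat shock factor 1, the product of HSF1, is held inactive by chaperones in unstressed cells, and on proteotoxic stress it binds heat shock elements, which are inverted repeats of the unit GAA, upstream of their genes. Misfolding in the ER lumen is sensed separately by IRE1, PERK and ATF6, whose branches of the unfolded protein response raise ER chaperones through other elements. Comparing the cytosolic set with the ER set therefore shows which compartment's chaperone genes moved with tunicamycin.

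The promoters are shown first, since heat shock elements and ER stress elements are what sets the 2 responses apart in textbook accounts. Windows from 250 bases before to 50 bases after each annotated start (RefSeq, GRCh38.p14) were found for 9 of the 10 genes, in 14 windows, and not for HSF1. The windows were searched on both strands for 3 alternating units, GAANNTTCNNGAA or TTCNNGAANNTTC, and for 2 units, GAANNTTC or TTCNNGAA, which each match of 3 units also contains. A run of 3 units occurred in 3 of the 14 windows (21.4%), those of HSPA8, HSP90AA1 and HSP90AB1, and in 0.490% of all 35116 windows. A pair of units occurred in 8 of the 14 windows, in 7 of the 9 genes and not in HSPH1 or BAG3, against 13.5% of all windows. Only exact matches within these windows were searched, so that a gene without a match may still have heat shock elements. Other chaperone lists were searched too. In windows of other cytosolic chaperones 3 units occurred in 9.76%, in mitochondrial ones in 16.7% and in ER ones in 4.17%. In chaperonin and prefoldin windows they occurred in 0%. The shares with 2 units were 26.8%, 33.3%, 12.5% and 29.4% in that order of lists. Matches of these 7 genes are printed 5′ to 3′ on the gene's strand, with the matching bases in capitals.

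HSPA8, chr11:123062174-123062196, minus strand: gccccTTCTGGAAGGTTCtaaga
HSP90AA1, chr14:102087100-102087152, minus strand: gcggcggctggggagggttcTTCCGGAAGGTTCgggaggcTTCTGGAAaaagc
HSP90AB1, chr6:44247758-44247863, plus strand: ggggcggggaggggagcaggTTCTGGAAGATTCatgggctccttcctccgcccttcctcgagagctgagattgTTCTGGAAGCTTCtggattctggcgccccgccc
HSPA1A, chr6:31815417-31815464, plus strand: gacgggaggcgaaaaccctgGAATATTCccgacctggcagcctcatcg
HSPA1B, chr6:31827613-31827660, plus strand: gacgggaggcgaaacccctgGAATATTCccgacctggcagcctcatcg
DNAJB1, chr19:14518417-14518494, minus strand: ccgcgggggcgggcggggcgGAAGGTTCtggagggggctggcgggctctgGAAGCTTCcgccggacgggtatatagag
HSPB1, chr7:76302471-76302518, plus strand: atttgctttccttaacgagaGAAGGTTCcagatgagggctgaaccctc

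These stretches lay outside annotated exons, other than that of HSPA8, which overlaps an exon of longer HSPA8 transcripts. Not printed are a second match of 3 units in the HSPA8 window, 230 to 218 bases before the start, and a match of 2 units at positions 2 to 9 from the start in another window of DNAJB1. For contrast, the ER stress element, searched as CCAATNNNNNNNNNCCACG on both strands, was found in none of the 14 windows, in 8 of 24 windows of ER chaperone genes (33.3%) and in 0.077% of all windows. It is shown for HSPA5, which encodes BiP, the Hsp70 of the ER, and for HSP90B1, which encodes GRP94, the Hsp90 of the ER, whose stretch overlaps annotated exons. A second match in the HSP90B1 window, at -89 to -71 from the start, is not printed.

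HSPA5, chr9:125241386-125241414, minus strand: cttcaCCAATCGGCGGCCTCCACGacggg
HSP90B1, chr12:103930211-103930239, plus strand: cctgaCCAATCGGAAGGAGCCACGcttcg

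A match describes letters in these windows and is not a measurement of binding, which was not assayed here.

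Most cytosolic heat shock genes went down after tunicamycin. Of the 10 genes, 7 fell, 1 rose and 2 did not pass the test in OCI-AML3 cells at 4 h (edgeR, adjusted p of at most 0.05), where 18.9% of all genes tested fell, 18.5% rose and 37.5% changed in either direction. At 24 h in OCI-AML3 cells all 10 fell, against 27.7% of all genes that fell and 51.1% that changed. In HEK293T cells at 24 h 8 fell and 2 did not pass the test, while 13.1% of all genes fell and 25.7% changed. The 7 genes that fell in all 3 comparisons were HSPA1A, HSPA1B, HSPA8, HSP90AA1, HSP90AB1, DNAJB1 and HSPH1. How many of all genes tested fell in all 3 was not counted, so that no share stands beside this count. The median log2 fold change over the 10 genes was -0.53, -0.64 and -0.62 in that order of comparisons, and over all genes it was -0.02, -0.01 and -0.01. HSPA1A and HSPA1B share much of their sequence, so that they may not count as separate members. Under the alternatives, which included summing these copies, 7 to 8, 9 to 10 and 7 to 10 members were called, in that order.

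The falls were moderate for most members. With the added requirement of an absolute log2 fold change over 1, 3 members fell in OCI-AML3 cells at 4 h (HSPA1A, HSPA1B and HSPA8; 1.47% of all genes fell so far), 1 at 24 h (HSPB1; 2.26%) and 2 in HEK293T cells (HSPA1A and HSPA1B; 0.550%). HSPA1A and HSPA1B share much of their sequence, so that these 2 may be 1 signal. Libraries treated with tunicamycin all lay below those treated with DMSO for 7 members at 4 h, for 10 at 24 h and for 9 in HEK293T cells, where 23.4%, 27.8% and 25.7% of all genes did so. These are bulk values scaled to the library, so that a fall in every cell, fewer expressing cells and a change in total RNA per cell cannot be told apart.

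**Figure D1:**
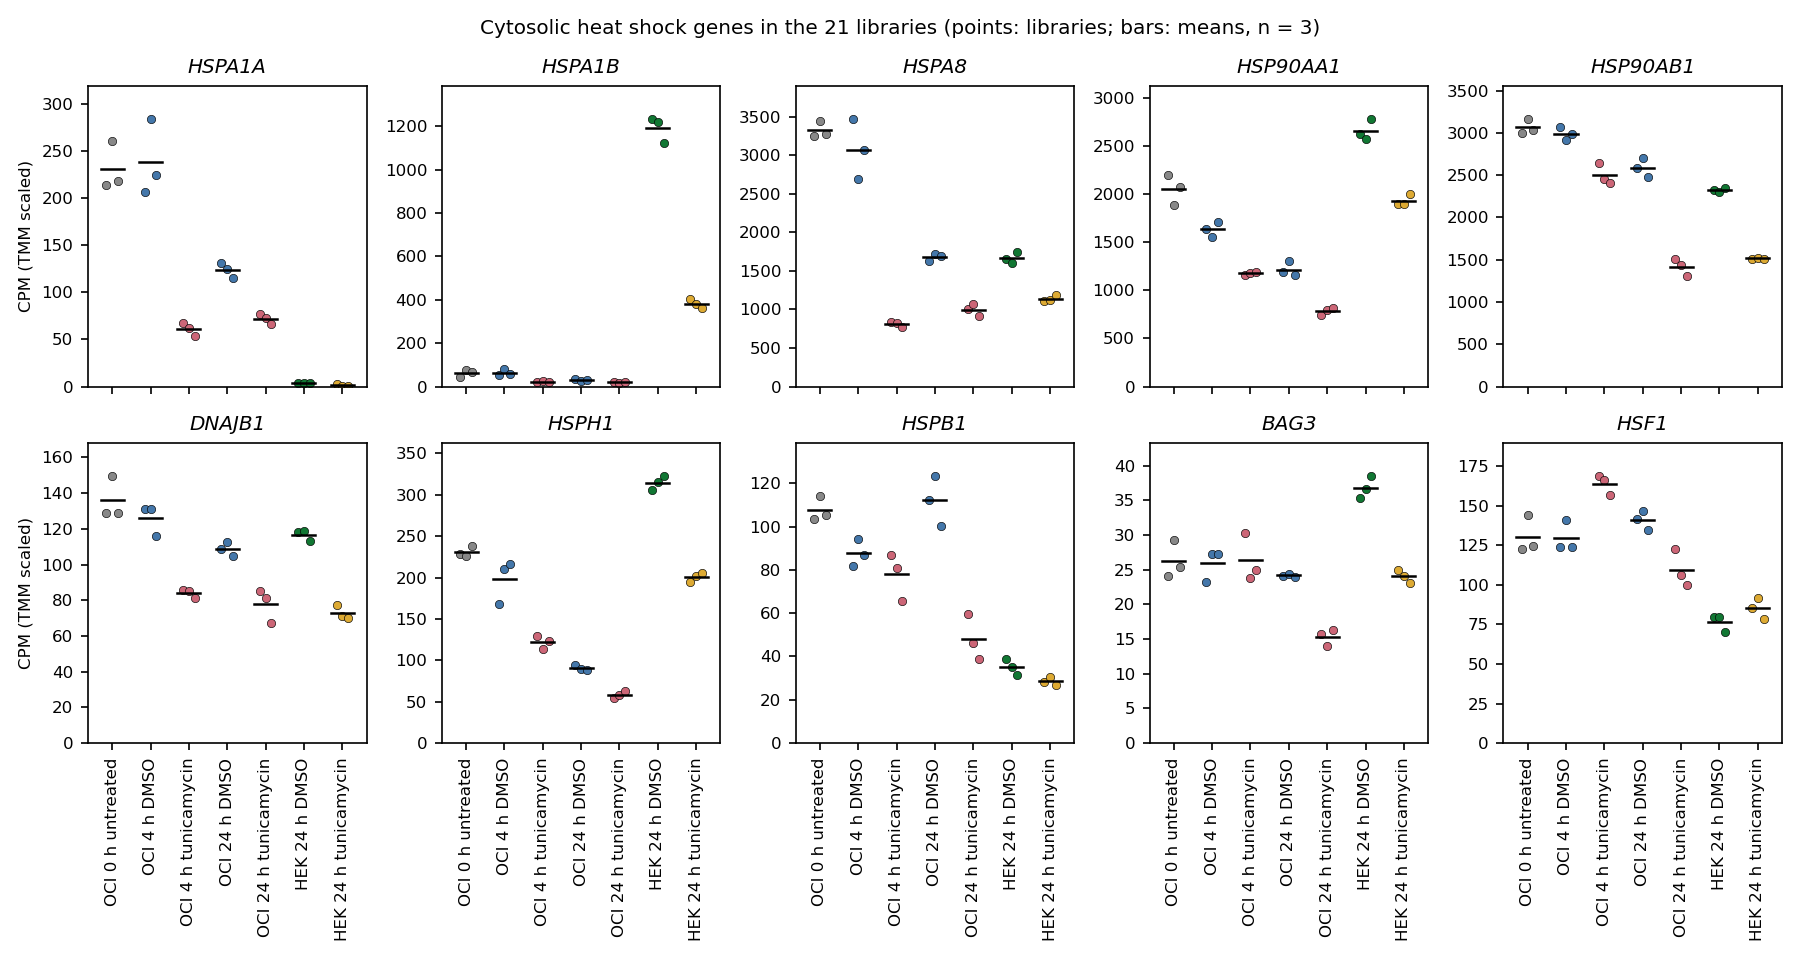
Level of each of the 10 cytosolic heat shock genes in CPM (linear axis from 0, scaled with TMM factors) in the 21 libraries; points are libraries and bars are means of 3. HSPA8 dropped from 2686 to 3464 CPM with DMSO at 4 h to 777 to 834 CPM with tunicamycin, and HSPA1A and HSPA1B are high in different cell lines.

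HSPA8 encodes Hsc70, the constitutive Hsp70 that folds new proteins and uncoats clathrin vesicles, and it had the most precise of the large falls. It is annotated (ENSG00000109971) on chromosome 11 from 123057489 to 123063230 on the minus strand of GRCh38. After DMSO for 4 h the 3 OCI-AML3 libraries held 3464, 2686 and 3067 CPM of HSPA8, and after tunicamycin they held 834, 818 and 777 CPM. The groups were far apart, and the log2 fold change was -1.92 (SE 0.08, adjusted p = 1.1e-14 in edgeR), a level 3.79-fold lower. At 24 h HSPA8 was at 1624, 1719 and 1688 CPM with DMSO and at 1005, 1068 and 910 CPM with tunicamycin, again without overlap (log2 fold change -0.75, SE 0.08, adjusted p = 6.9e-08). In HEK293T cells it went from 1650, 1606 and 1744 CPM to 1113, 1119 and 1189 CPM (-0.55, SE 0.08, adjusted p = 1.6e-05).

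The effect on HSPA8 was smaller at 24 h than at 4 h, with a difference of 1.17 on the log2 scale (SE 0.11, adjusted p of the interaction = 7.4e-08). The DMSO level had itself dropped in the meantime, from 3072 ± 389 CPM (SD, n = 3) to 1677 ± 48.4 CPM, while the tunicamycin level was 810 ± 29.5 CPM at 4 h and 994 ± 79.5 CPM at 24 h. The snoRNA genes (SNORD14C, SNORD14D and SNORD14E) lie within HSPA8, and an antisense lncRNA overlaps it. Strand use in counting was not given in the sources used here, so that reads of antisense partners cannot be told apart from those of the gene.

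HSPA1A and HSPA1B encode the heat-inducible Hsp70 from neighbouring single-exon copies on chromosome 6, HSPA1A (ENSG00000204389) from 31815543 to 31817946 and HSPA1B (ENSG00000204388) from 31827738 to 31830254, both on the plus strand of GRCh38. Over 150-base windows of the transcripts, the read length used, 69.6% of HSPA1A windows occurred unchanged in HSPA1B, and 66.1% of HSPA1B windows in HSPA1A. HSPA1B is also overlapped by a lncRNA on its own strand. No window of the other 8 members was shared with another gene. The 2 promoter windows were also 92.6% identical over 299 aligned bases. How counts were split between the copies is therefore uncertain, and their sum is given beside each.

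In OCI-AML3 cells HSPA1A stood at 207, 284 and 224 CPM after DMSO for 4 h and at 67.8, 62.7 and 53.8 CPM after tunicamycin. Its log2 fold change was -1.95 (SE 0.13, adjusted p = 3.3e-11). HSPA1B went from 51.8, 83.1 and 58.4 CPM to 22.8, 23.9 and 21.7 CPM (log2 fold change -1.50, SE 0.16, adjusted p = 1.6e-07). Both copies were thus lower in every treated library at 4 h, and the sum fell 3.59-fold, from 303 ± 56.8 to 84.2 ± 7.82 CPM (SD, n = 3; log2 fold change -1.84, SE 0.11, adjusted p = 9.1e-12).

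At 24 h the falls in OCI-AML3 cells were smaller. HSPA1A was at 131, 125 and 115 CPM with DMSO and 77.0, 72.5 and 66.3 CPM with tunicamycin (log2 fold change -0.78, SE 0.13, adjusted p = 2.3e-05). HSPA1B was at 36.3, 27.6 and 28.3 CPM with DMSO and 20.9, 17.8 and 21.3 CPM with tunicamycin (-0.62, SE 0.17, adjusted p = 0.00499). That call on HSPA1B did not hold without replicate 1 of the DMSO libraries, the highest of them (-0.43, adjusted p = 0.0672), whereas the sum fell from 154 ± 12.4 to 91.9 ± 5.35 CPM (SD, n = 3; -0.75, SE 0.11, adjusted p = 8.3e-06). The interaction with time was 1.17 (SE 0.18, adjusted p = 3.1e-05) for HSPA1A, 0.88 (SE 0.24, adjusted p = 0.00632) for HSPA1B and 1.10 (SE 0.16, adjusted p = 1.6e-05) for the sum.

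HEK293T cells showed the reverse assignment between the copies. There HSPA1B held 1232, 1221 and 1125 CPM with DMSO and 402, 380 and 362 CPM with tunicamycin (log2 fold change -1.65, SE 0.14, adjusted p = 8.9e-09). HSPA1A held 3.80, 3.48 and 3.70 CPM with DMSO, from 65 to 81 counts a library, and 2.37, 1.03 and 0.940 CPM with tunicamycin (-1.28, SE 0.27, adjusted p = 0.00108). Replicate 1 of tunicamycin had 47 counts of HSPA1A against 19 and 14 in the others, and without it the log2 fold change was -1.88. HSPA1B took 99.4 to 99.7% of the summed counts in the HEK293T libraries and 17.4 to 28.8% in the OCI-AML3 libraries, with no library between.

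**Figure D2:**
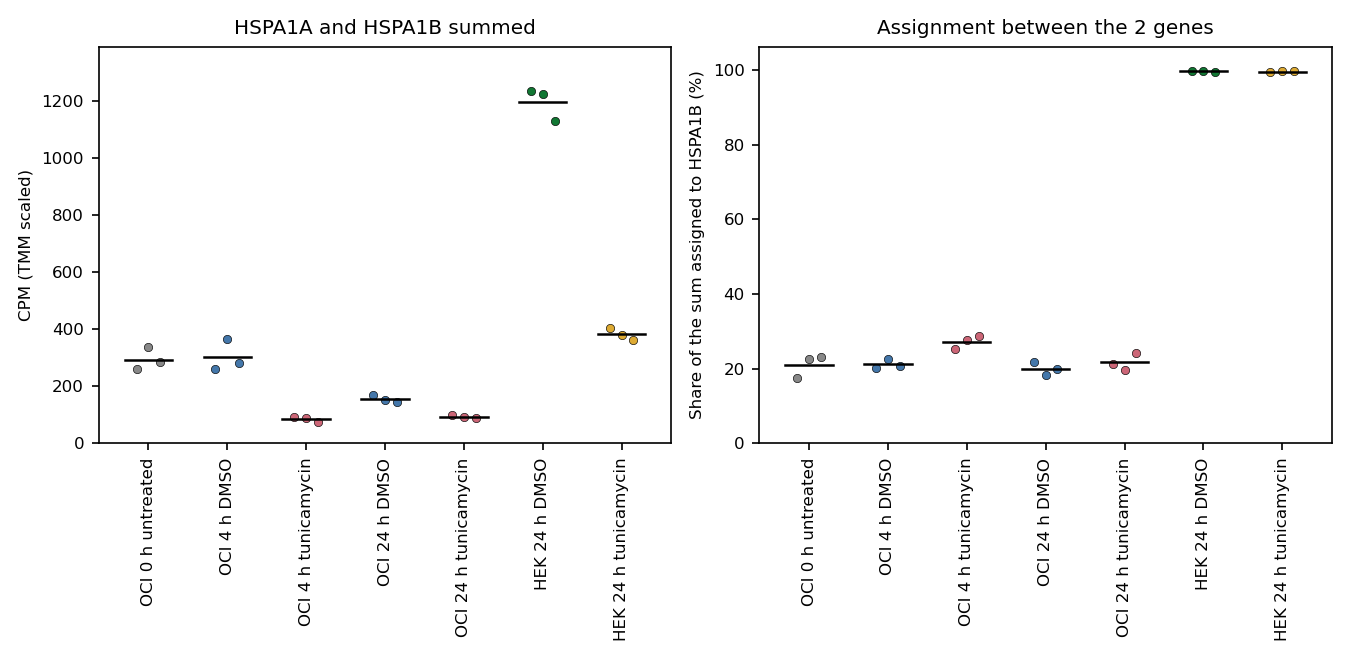
Left, HSPA1A and HSPA1B summed, in CPM; right, the percentage of that sum assigned to HSPA1B, in the 21 libraries (points) with group means (bars). The sum fell with tunicamycin in each of the 3 comparisons, and the share of HSPA1B was at most 28.8% in OCI-AML3 and at least 99.4% in HEK293T libraries.

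The summed level fell 3.13-fold in HEK293T cells (log2 fold change -1.64, SE 0.11, adjusted p = 6.3e-11), from 1196 ± 58.5 to 383 ± 20.6 CPM (SD, n = 3). At 24 h this fall was larger in HEK293T than in OCI-AML3 cells, with a difference of -0.90 (SE 0.15, adjusted p = 1.8e-04) for the sum and of -1.03 (SE 0.22, adjusted p = 0.00164) for HSPA1B. For HSPA1A the difference was -0.50 (95% confidence interval -1.13 to 0.13, adjusted p = 0.234), and it reached -1.09 (adjusted p = 0.0179) without replicate 1 of tunicamycin.

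The Hsp90 pair fell in each comparison. HSP90AA1 (ENSG00000080824) encodes the stress-inducible cytosolic Hsp90 alpha, on chromosome 14 from 102080742 to 102139699, where WDR20 overlaps it on the opposite strand. It was at 1636, 1557 and 1713 CPM with DMSO at 4 h and at 1161, 1177 and 1191 CPM with tunicamycin (log2 fold change -0.48, SE 0.07, adjusted p = 7.3e-06). At 24 h the levels were 1185, 1302 and 1155 CPM against 741, 795 and 814 CPM (-0.63, SE 0.07, adjusted p = 1.1e-07). In HEK293T cells they were 2628, 2569 and 2775 CPM against 1892, 1895 and 1997 CPM (-0.46, SE 0.07, adjusted p = 2.1e-05). No treated library reached a DMSO library of its comparison, and neither interaction passed the threshold, with a 95% confidence interval of -0.36 to 0.04 between times and of -0.03 to 0.37 between lines.

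HSP90AB1 (ENSG00000096384), on chromosome 6 from 44246166 to 44253888, encodes the constitutive Hsp90 beta. It had the smallest fall among the called members at 4 h, from 3066, 2922 and 2982 CPM to 2650, 2458 and 2407 CPM (log2 fold change -0.26, SE 0.06, adjusted p = 0.00277). At 24 h the fall was 1.83-fold, from 2584, 2704 and 2484 CPM to 1509, 1439 and 1303 CPM (-0.87, SE 0.06, adjusted p = 2.5e-10). Its effect was more negative at 24 h than at 4 h, by -0.61 (SE 0.09, adjusted p of the interaction = 2.0e-05), opposite in direction to that of HSPA8. In HEK293T cells it went from 2330, 2300 and 2350 CPM to 1513, 1527 and 1515 CPM (-0.62, SE 0.06, adjusted p = 1.4e-07). The difference between cell lines was 0.25 (SE 0.09, adjusted p = 0.0395), a call lost under 18 of 30 alternatives, among them most of those that left out 1 library (0.15 to 0.26).

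DNAJB1 and HSPH1, the partners of Hsp70, fell in each comparison, by 1.40-fold to 1.62-fold. DNAJB1 (ENSG00000132002; chromosome 19, 14514769 to 14560391) encodes an Hsp40 that delivers substrates and stimulates the Hsp70 ATPase, and TECR and MIR639 overlap it on the opposite strand. It was at 131, 131 and 116 CPM with DMSO at 4 h and at 85.6, 85.3 and 81.2 CPM with tunicamycin (log2 fold change -0.58, SE 0.08, adjusted p = 3.7e-06). At 24 h its levels were 109, 112 and 105 CPM against 85.1, 81.3 and 67.5 CPM (-0.48, SE 0.08, adjusted p = 3.5e-05). In HEK293T cells they were 118, 119 and 113 CPM against 77.2, 71.0 and 70.2 CPM (-0.68, SE 0.08, adjusted p = 9.0e-07). Treated and control libraries did not overlap.

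HSPH1 (ENSG00000120694; chromosome 13, 31134973 to 31162388) encodes Hsp110, a nucleotide exchange factor of Hsp70. Its level was 168, 210 and 217 CPM with DMSO at 4 h and 130, 114 and 123 CPM with tunicamycin (log2 fold change -0.70, SE 0.08, adjusted p = 1.7e-07). At 24 h it was 94.0, 89.3 and 88.2 CPM against 55.1, 57.6 and 62.4 CPM (-0.63, SE 0.08, adjusted p = 1.0e-06). In HEK293T cells it was 306, 315 and 323 CPM against 195, 202 and 205 CPM (-0.65, SE 0.08, adjusted p = 8.2e-07). For HSPH1 the 95% confidence interval of the difference was -0.16 to 0.29 between times and -0.24 to 0.21 between lines, and for DNAJB1 it was -0.13 to 0.34 and -0.43 to 0.04. The DNAJB1 difference between lines passed the threshold in edgeR without TMM factors (-0.31, adjusted p = 0.028). It also passed without replicate 3 of tunicamycin at 24 h in OCI-AML3 cells (-0.34, adjusted p = 0.0262).

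HSPB1 and BAG3, which encode the small chaperone Hsp27 and a cochaperone that links Hsp70 and small heat shock proteins to autophagy, changed late in OCI-AML3 cells. HSPB1 (ENSG00000106211; chromosome 7, 76302673 to 76304295) was at 82.0, 94.3 and 86.7 CPM with DMSO at 4 h and at 87.0, 80.9 and 65.8 CPM with tunicamycin. These libraries overlapped, and the log2 fold change was -0.17 (95% confidence interval -0.42 to 0.08, adjusted p = 0.285). At 24 h HSPB1 was at 112, 123 and 100 CPM with DMSO and at 59.4, 46.0 and 39.0 CPM with tunicamycin, 2.33-fold lower (-1.22, SE 0.12, adjusted p = 3.7e-08). The difference between the times was -1.05 (SE 0.17, adjusted p = 6.5e-05).

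In HEK293T cells HSPB1 stood at 38.8, 35.3 and 31.5 CPM with DMSO and at 28.3, 30.7 and 26.9 CPM with tunicamycin. The treated libraries lay below the controls, with a log2 fold change of -0.30 (95% confidence interval -0.56 to -0.03) whose adjusted p was 0.0928 and ran from 0.00496 to 0.304 over the alternatives. The effect on HSPB1 differed between the lines at 24 h by 0.93 (SE 0.18, adjusted p = 5.4e-04).

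BAG3 (ENSG00000151929; chromosome 10, 119651380 to 119677819) held 23.2, 27.3 and 27.3 CPM with DMSO at 4 h and 30.3, 23.9 and 24.9 CPM with tunicamycin, with overlapping libraries (log2 fold change 0.02, 95% confidence interval -0.18 to 0.22, adjusted p = 0.883). At 24 h it held 24.2, 24.4 and 23.9 CPM against 15.7, 14 and 16.4 CPM (-0.65, SE 0.10, adjusted p = 1.9e-05). The interaction with time was -0.67 (SE 0.14, adjusted p = 8.3e-04). In HEK293T cells BAG3 went from 35.3, 36.6 and 38.5 CPM to 24.9, 24.1 and 23.1 CPM (-0.61, SE 0.09, adjusted p = 3.4e-05), and its difference between the lines was 0.04 (95% confidence interval -0.25 to 0.32).

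HSF1 (ENSG00000185122; chromosome 8, 144291591 to 144314720), the factor that drives the response, was the 1 member that rose, and DGAT1 and a lncRNA overlap it on the opposite strand. At 4 h it was at 124, 141 and 124 CPM with DMSO and at 169, 166 and 157 CPM with tunicamycin (log2 fold change 0.34, SE 0.08, adjusted p = 0.00254). Every treated library was higher at that time, whereas at 24 h every treated library was lower, with 142, 147 and 134 CPM for DMSO and 123, 106 and 99.7 CPM for tunicamycin (-0.37, SE 0.08, adjusted p = 0.00105). Its effect differed between the times by -0.71 (SE 0.12, adjusted p = 9.8e-05). HEK293T libraries overlapped, at 79.8, 79.8 and 70.3 CPM with DMSO and 85.7, 91.5 and 78.6 CPM with tunicamycin (0.16, 95% confidence interval -0.02 to 0.33, adjusted p = 0.196), and the difference from OCI-AML3 cells was 0.52 (SE 0.12, adjusted p = 0.00268). These are mRNA levels, and the activation of the HSF1 protein was not measured.

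**Figure D3:**
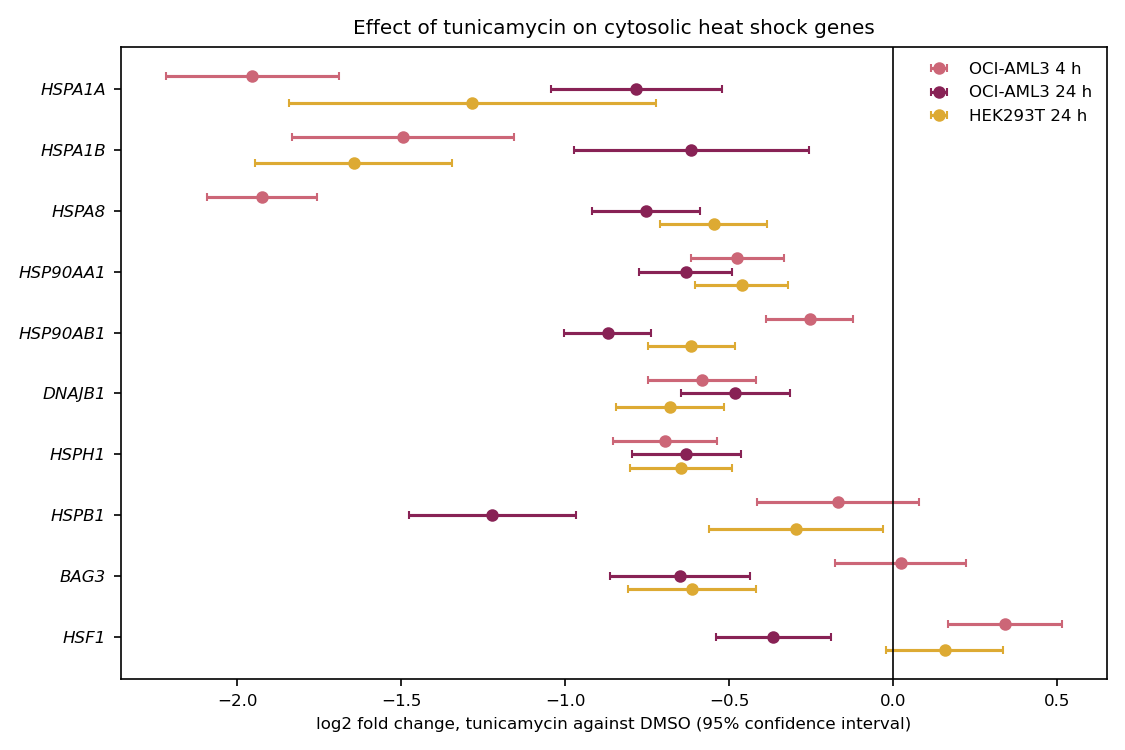
Log2 fold change of each cytosolic heat shock gene, tunicamycin against DMSO, with its 95% confidence interval, for OCI-AML3 cells at either time and for HEK293T cells (3 against 3 libraries each). HSPA1A, HSPA1B and HSPA8 lie farthest to the left at 4 h, HSPB1 at 24 h in OCI-AML3 cells, and HSF1 lies right of 0 only at 4 h in OCI-AML3 and, with an interval that includes 0, in HEK293T cells.

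In all, the interaction with time passed the threshold for 7 members, against 35.3% of all genes, with a weaker effect at 24 h for HSPA1A, HSPA1B and HSPA8 and a more negative one for HSP90AB1, HSPB1, BAG3 and HSF1. The interaction with cell line passed it for 4 members, HSPA1B, HSP90AB1, HSPB1 and HSF1, against 26.8% of all genes. For HSP90AB1 that call was lost under 18 of 30 alternatives. The 2 tests share the OCI-AML3 libraries at 24 h.

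These genes also differed between the DMSO groups of OCI-AML3 cells, in which time in culture and length of DMSO exposure cannot be told apart. Between 4 h and 24 h of DMSO in OCI-AML3 cells 7 members fell and 1 rose, where 21.6% of all genes fell and 42.6% changed. HSPH1 fell from 198 ± 26.4 to 90.5 ± 3.10 CPM (SD, n = 3; log2 fold change -1.13, SE 0.08, adjusted p = 1.8e-10), HSPA1B fell by 1.07 (SE 0.16) and HSPA1A fell by 0.95 (SE 0.12). HSPA8 had a log2 fold change of -0.87 (SE 0.08) and HSP90AA1 of -0.43 (SE 0.07). HSP90AB1 and DNAJB1 fell by 0.21 each, and the call was lost under 7 of 30 alternatives for DNAJB1 and under 1 for HSP90AB1, the fit on the compared groups (-0.20, adjusted p = 0.112). HSPB1 rose by 0.35 (SE 0.12, adjusted p = 0.0197), a call that 4 alternatives took away. The DMSO libraries at 4 h and at 24 h are also the controls of the tunicamycin comparisons, so that these values are not independent of them.

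Between cells given DMSO for 4 h and untreated cells no difference was detected in the main test. The untreated cells were sampled at 0 h, so that DMSO and time in culture cannot be told apart here. Compared with untreated cells, edgeR called 0 of the 10 members and 0% of all genes, with 3 members and 1160 genes at an unadjusted p under 0.05, and limma voom likewise called 0 genes. DESeq2 called 16 genes, 1 of them a member: HSP90AA1 was at 2052 ± 154 CPM untreated and 1636 ± 78.0 CPM after DMSO (SD, n = 3), where DESeq2 gave a log2 fold change of -0.32 and an adjusted p of 0.0014, against 0.296 in edgeR. HSPH1 and HSPB1 were the other members with an unadjusted p under 0.05 in edgeR (log2 fold changes -0.22 and -0.30).

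The cell lines were also compared in DMSO at 24 h. Between HEK293T and OCI-AML3 cells 8 members differed, a share no larger than the 82.7% of all genes that did. The summed HSPA1A and HSPA1B level was 7.75-fold higher in HEK293T cells (log2 fold change 2.95, SE 0.11, adjusted p = 8.7e-17). HSPH1 was 3.47-fold higher there, HSP90AA1 2.19-fold and BAG3 1.52-fold. HSPB1 was 3.18-fold lower in HEK293T cells, and HSF1 was 1.84-fold lower. HSP90AB1 had a log2 fold change of -0.16, a call lost under 9 of 30 alternatives, HSPA8 of -0.01 and DNAJB1 of 0.10. Without TMM factors these 3 became 0.19, 0.33 and 0.45, a scaling under which the median of all genes was 0.33, so that HSP90AB1 and HSPA8 changed sign with the scaling. DNAJB1 kept its sign there and passed the threshold (adjusted p = 4.4e-06), and was at -0.0785 without the filter on low counts. Without that filter HSPA8 was at -0.19 and passed the threshold (adjusted p = 0.0262 in edgeR). Cell line and growth medium cannot be told apart in this comparison.

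Levels of different genes were ordered per kilobase of the canonical transcript, in CPM per kilobase. In OCI-AML3 cells after DMSO for 4 h, HSPA8 (1357 ± 172; SD, n = 3) and HSP90AB1 (1170 ± 28.4) stood at the top with overlapping libraries. HSP90AA1 followed at 507 ± 24.2, apart from its neighbours. HSPB1 (113 ± 7.98) and HSPA1A (99.3 ± 16.8) overlapped, as did HSF1 (60.7 ± 4.74) with DNAJB1 (56.2 ± 3.85) and HSPH1 (37.8 ± 5.03) with HSPA1B (25.6 ± 6.56), while BAG3 was lowest at 10.1 ± 0.930. After tunicamycin for 4 h HSPA8 had moved from the first to the third place, at 358 ± 13, and overlapped HSP90AA1 (364 ± 4.62). In HEK293T cells after DMSO the order was HSP90AB1 (911 ± 9.95), HSP90AA1 (823 ± 32.8), HSPA8 (736 ± 31.3) and HSPA1B (474 ± 23.3), with none of these 4 overlapping, and HSPA1A was last at 1.52 ± 0.0675.

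Across the 15 OCI-AML3 libraries the members fell into looser and tighter company, by Pearson's r of log2 CPM. Since these libraries share 5 treatment groups and counted reads of HSPA1A and HSPA1B may be exchanged, r is a description only. HSPA8 followed HSPA1A most closely (r = 0.976) and HSP90AA1 followed HSPH1 (r = 0.955), whereas HSF1 had r = -0.19 with HSPA8 and 0.71 with BAG3. The non-member gene nearest in pattern was LPCAT1 for HSPA1A (r = 0.974), MCM4 for HSPA1B (0.965), ENDOD1 for HSPA8 (0.989) and PRTN3 for HSP90AB1 (0.994). It was ISG20L2 for DNAJB1 (0.984), TFRC for HSPH1 (0.988), CERS1 for HSPB1 (0.980), CKAP5 for BAG3 (0.956) and RBM10 for HSF1 (0.975).

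Other cytosolic chaperones and cochaperones also went down more often than up, though by less. Of 32 listed genes 29 were tested, as HSPB8 and CRYAB had too few counts and HSPB11 was not matched by that symbol. At 4 h 1 rose and 11 fell (median log2 fold change -0.16), at 24 h 1 rose and 18 fell (-0.29), and in HEK293T cells none rose and 13 fell (-0.18). Of all genes tested, 18.9%, 27.7% and 13.1% fell in these comparisons. HSPA2, a further Hsp70 gene, was at 4.88 ± 0.321 CPM with DMSO and 1.47 ± 0.0583 CPM with tunicamycin at 4 h (SD, n = 3; -1.73, SE 0.22). DNAJA1, an Hsp40 gene, and FKBP4, an immunophilin cochaperone of Hsp90, followed at -0.89 and -0.73, while DNAJC7 rose by 0.35. At 24 h FKBP4 (-1.44), HSPA6 (-1.05) and HSPBP1 (-0.90) fell most and DNAJB4 rose (0.43). In HEK293T cells the largest falls were those of HSPA2 (-0.69), HSPA4, an Hsp110 relative (-0.69), and STIP1, the adaptor of Hsp70 and Hsp90 (-0.50).

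The chaperonin TRiC and prefoldin take part in the folding of actin and tubulin in the cytosol. Of their 14 subunit genes, 1 rose and 5 fell at 4 h, and 0 rose and 11 fell at 24 h. In HEK293T cells 0 rose and 9 fell. Of all genes tested, 18.9%, 27.7% and 13.1% fell in these comparisons. The medians of the 14 genes were -0.10, -0.53 and -0.29. PFDN6 fell most at 4 h (-0.73), CCT7 at 24 h (-0.83) and CCT6A in HEK293T cells (-0.46), whereas CCT8 rose at 4 h (0.21). Of 6 mitochondrial chaperone genes 2 rose and 3 fell at 4 h, 1 rose and 5 fell at 24 h, and 1 rose and 4 fell in HEK293T cells. Of all genes tested, 18.5% rose and 18.9% fell at 4 h. At 24 h 51.1% changed in OCI-AML3 cells and 25.7% in HEK293T cells. HSPE1 and HSPD1, which encode Hsp10 and Hsp60, fell in each comparison, with log2 fold changes of -1.30, -1.26 and -0.68 for HSPE1 and of -0.36, -0.52 and -0.45 for HSPD1. GRPEL1, a nucleotide exchange factor of the mitochondrial Hsp70, fell in each as well (-0.26, -0.37 and -0.25). TRAP1, the mitochondrial Hsp90, was not called at 4 h (adjusted p = 0.972) and fell at 24 h (-0.99) and in HEK293T cells (-0.24). HSPA9, the mitochondrial Hsp70, rose in each (0.67, 0.33 and 0.24).

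The list of other heat shock factors and HSF1 regulators held 8 genes. Of these, 1 rose and 1 fell at 4 h (18.5% and 18.9% of all genes did), 2 rose and 3 fell at 24 h (51.1% of all genes changed), and 1 rose and 0 fell in HEK293T cells (25.7% changed). HSBP1, which encodes a small protein that binds HSF1 trimers, fell at 4 h (-0.68) and at 24 h (-0.60), and SIRT1, a deacetylase that acts on HSF1, rose (0.59 and 0.45). HDAC6, a cytosolic deacetylase, fell in OCI-AML3 cells at 24 h (-0.37) and rose in HEK293T cells (0.29), with a difference of 0.67 between the lines (SE 0.10, adjusted p = 2.8e-05). VCP fell (-0.27) and HSF4 rose (0.69) in OCI-AML3 cells at 24 h.

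ER chaperones moved the other way. Of 20 such genes 18 rose and 1 fell in OCI-AML3 cells at 4 h, 19 rose and 1 fell at 24 h, and 20 rose in HEK293T cells, with medians of 1.48, 2.58 and 1.58. Of all genes tested, 18.5% rose at 4 h, and 51.1% and 25.7% changed in either direction at 24 h in OCI-AML3 and HEK293T cells. HSPA5 rose by 3.29, 3.52 and 2.70, and the gene that fell was SERPINH1 (-0.31 and -0.65), which encodes a collagen chaperone of the ER. HSPA8 and HSPA5 thus had opposite signs in the 3 comparisons, HSPA8 being at -1.92, -0.75 and -0.55.

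**Figure D4:**
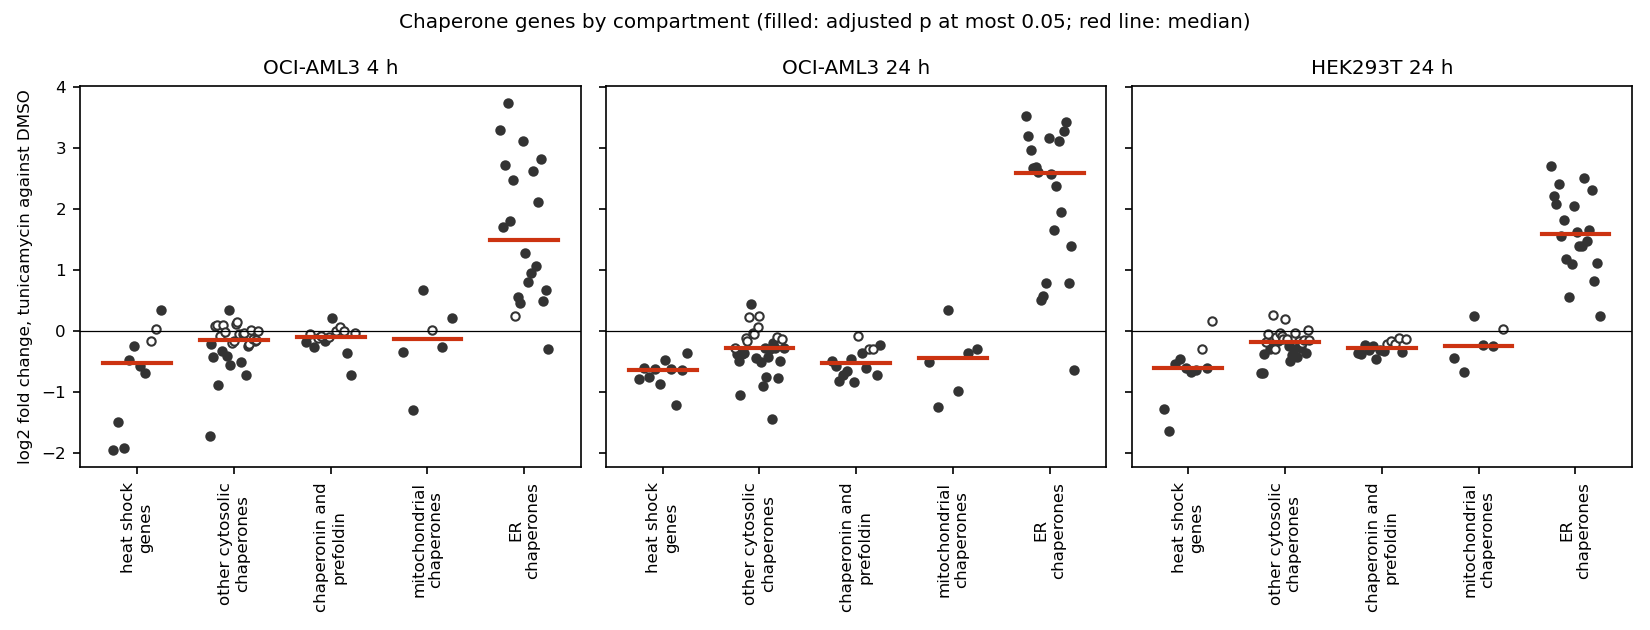
Log2 fold change, tunicamycin against DMSO, of chaperone genes grouped by list in the 3 comparisons; filled points passed an adjusted p of 0.05 in edgeR's test, open points did not, and red lines are medians of the tested genes. The medians of the cytosolic heat shock genes (-0.53, -0.64 and -0.62) lie below 0 and those of the ER chaperones (1.48, 2.58 and 1.58) above it.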

How the data were processed

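RNA of OCI-AML3 and HEK293T cells was poly-A enriched and sequenced as paired-end reads of 150 bases. The authors aligned them with STAR to GRCh38 and deposited gene-level expected counts from RSEM, whose splitting of ambiguous reads affects HSPA1A and HSPA1B. In these columns 3.54 to 4.22% of values were not whole, and the counts were rounded. Genes with 1 CPM or more in at least 8 libraries (14012) were tested with edgeR 4.0.16 (TMM, quasi-likelihood test, 1 model over the 7 groups) and Benjamini-Hochberg adjustment over all of them, with an adjusted p of at most 0.05 as the call. The study's own thresholds add an absolute log2 fold change over 1, and its limma voom was an alternative here (limma 3.58.1), as was DESeq2 1.42.0. SE is the fold change divided by the root of F. The script was tested on simulated data. CPM used TMM-scaled library sizes, and correlations used a prior count of 2. Transcript windows came from GENCODE and promoters from RefSeq. No pair of libraries was identical. Other alternatives were other scalings and filters, fits on the compared groups, a replicate block, summed HSPA1 counts and leaving out each library. The members and lists were chosen with earlier results of these data known. The text names all 10 members, of other lists at most the 3 largest rises and 3 largest falls that passed the test, and the non-member gene nearest each member in r, which for HSP90AA1 is not reported here.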

Additional observations from a re-analysis of the deposited data

Results flagged for a closer look

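For 7 members the effect of tunicamycin in OCI-AML3 cells differed between 4 h and 24 h by edgeR's interaction test, against 35.3% of all genes. The differences, 24 h minus 4 h on the log2 scale, were 1.17 for HSPA1A (adjusted p = 3.1e-05), 0.88 for HSPA1B (0.00632) and 1.17 for HSPA8 (7.4e-08), whose falls were smaller at 24 h, and -0.61 for HSP90AB1 (2.0e-05), -1.05 for HSPB1 (6.5e-05), -0.67 for BAG3 (8.3e-04) and -0.71 for HSF1 (9.8e-05). The DMSO levels of HSPA1A, HSPA1B and HSPA8 were lower at 24 h than at 4 h, and their part in the difference was not tested.

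For 4 members the effect at 24 h differed between the cell lines, against 26.8% of all genes. The differences, HEK293T minus OCI-AML3, were -1.03 for HSPA1B (adjusted p = 0.00164), 0.25 for HSP90AB1 (0.0395), 0.93 for HSPB1 (5.4e-04) and 0.52 for HSF1 (0.00268). The call on HSP90AB1 was lost under 18 of 30 alternatives. For HSPA1B the assignment of reads between the copies also differs between the lines, and the summed counts gave -0.90 (1.8e-04). No group had more than 3 libraries, and single outlying libraries were not tested.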

How the results depend on the processing

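Of 2384 values of single genes under alternatives, 2279 kept their direction and side of the threshold, 40 lost the call, 12 gained it and 53 changed sign; the cause was not tested. Every fall of a member that was called after tunicamycin kept its call under all alternatives run, other than HSPA1B at 24 h in OCI-AML3 cells without replicate 1 of DMSO (-0.43). The count of members called between DMSO at 4 h and untreated cells went from 0 to 1 with DESeq2 and to 1 without the filter, each time HSP90AA1. Sign changes concerned values near 0, other than those of HSPA8 and HSP90AB1 between the lines without TMM, which passed the threshold with the opposite sign. Between the lines, the difference for BAG3 was -0.0031 with DESeq2, -0.0028 with its size factors, -0.0804 without TMM, -0.0065 with a filter of 1 CPM in 3 libraries and -0.0046 in the groups compared, and -0.0796 to 0.0621 when 1 library was left out. That of HSPH1 was -0.11 to 0.0055 without 1 library. At 4 h BAG3 was at -0.0098 without the filter and -0.0906 to 0.0911 without 1 library. Between DMSO at 4 h and untreated cells, BAG3 was at 0.0053 and HSF1 at 0.0127 without TMM, and HSF1 at 0.0051 in the groups compared. There, leaving out 1 library gave -0.10 to 0.17 for HSPA1A, -0.17 to 0.25 for HSPA1B, -0.0522 to 0.0120 for HSP90AB1, -0.0757 to 0.0926 for BAG3 and -0.0760 to 0.0933 for HSF1. Between the times HSPH1 ran from -0.0031 to 0.20. In DMSO at 24 h between the lines, HSPA8 was at 0.33 (adjusted p = 4.3e-05) and HSP90AB1 at 0.19 (0.00187) without TMM. In that comparison HSPA8 was at -0.19 (0.0262) and DNAJB1 at -0.0785 without the filter, and HSPA8 at -0.0089 to 0.0519 without 1 library. Without TMM the median of all genes was -0.14 between DMSO at 24 h and 4 h and 0.33 between the lines. Same-numbered libraries had correlated deviations of -0.21 to 0.24 over the tunicamycin comparisons, and of 0.07, 0.10 and 0.24 in HEK293T cells. With 3 libraries a group, this cannot settle whether the numbers pair them. With the replicate number as a block 8, 10 and 9 members were called in the 3 tunicamycin comparisons, the gain being HSPB1 in HEK293T cells (-0.30, adjusted p = 0.0384). HSPB1 was also called there without the filter (0.0141), in the groups compared (0.00496) and without replicate 1 of tunicamycin at 24 h in OCI-AML3 cells (0.0429). HSF1 was called there in the groups compared (0.0262). The lowest depth, of HSPA1A in HEK293T cells (14 counts in 1 library), limits that value.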
